A study of Cucumis sativus with 6 samples.

Results

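A group of 38 cucumber genes was at or near a score of 0 in the phloem of the pedicle and well above it in the phloem of the stalk and of the fruit. The 38 were chosen from the 15720 genes of the authors' table by 3 conditions. Both pedicle libraries had to be at 3 TPTM or less (a score normalised to 10000000 per library), all 4 stalk and fruit libraries at 20 TPTM or more, and the stalk and fruit means, each plus 5, within 2-fold of each other. The measured scores themselves chose the genes, so low pedicle scores and similar stalk and fruit scores are what the choice required and are given here as a description, without a test.

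All 6 libraries came from the inbred line 9930 and from young fruits 3 days after the flowers opened. Pedicle, stalk and fruit each gave 2 libraries, which the submitters call biological replicates, and the material differed in organ and in no labelled treatment or genotype. Phloem was cut out of fixed, embedded sections with a laser, and its RNA was amplified before the libraries were made. The labels do not say whether a library pooled several plants, nor how pedicle and stalk were told apart.

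Phloem moves sugars, amino acids, proteins and RNAs from leaves to growing organs. Its sieve elements lose their nucleus and most of their organelles as they mature, and they depend on the companion cells beside them, so the RNA of dissected phloem comes from companion cells, phloem parenchyma and the sap together. In a young fruit the phloem unloads sugars into growing tissue, whereas in the stems that bear it the phloem mainly carries them onward. Cucurbits also have phloem strands outside the vascular bundles, which differ in their proteins from the strands inside them. In dissected tissue, fewer cells of a type and less RNA per cell cannot be told apart.

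None of the 38 locus identifiers matched the RefSeq gene table used for names (0 of 15720 in the whole table), so the products of these genes are not stated, and the labelled tissue could not be checked against phloem markers.

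The 6 libraries had like totals by construction but differed in how many genes were low. Genes at 3 TPTM or less numbered 1063 and 733 in the pedicle libraries (replicates 1 and 2), against 347 to 406 in the stalk and fruit libraries, and genes listed at 0 numbered 510 and 306 against 89 to 161. The 10 most abundant genes held 14.5% and 15.3% of the score in the pedicle libraries and 8.64% to 10.1% in the others. The part that these library-wide differences play in the low pedicle scores of the 38 genes was not tested. In the 4 libraries where the uneven use of whole numbers gave an estimate, 1 TPTM stood for about 3.34 reads in pedicle replicate 2, 2.42 and 2.76 in stalk replicates 1 and 2, and 2.18 in fruit replicate 2. With these estimates a score of 3 in pedicle replicate 2 comes from 9 to 11 reads and a score of 0 from at most 1 read, while a score of 20 is 48 or 49 reads in stalk replicate 1 and 43 or 44 in fruit replicate 2. The reads behind pedicle replicate 1 and fruit replicate 1 remain unknown. Scores of 3 are therefore not silence, and the group is called here by its rule.

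Within the limit of 3 TPTM the pedicle scores still varied. Both pedicle libraries listed 15 of the 38 genes at 0, 11 genes were at 0 in replicate 1 only, 1 gene was at 0 in replicate 2 only, and 11 genes were above 0 in both. In pedicle replicate 1, 26 genes were at 0, 8 at 1, 3 at 2 and 1 at 3. In pedicle replicate 2, 16 genes were at 0, 12 at 1, 1 at 2 and 9 at 3. Replicate 2 was higher than replicate 1 in 13 genes, lower in 3 and equal in 22. Summed over the 38 genes, the scores of the pedicle libraries came to 17 and 41 TPTM, those of the stalk libraries to 3613 and 4516, and those of the fruit libraries to 5621 and 4154. Genes with 0 in both pedicle libraries occurred at low and middle levels of the other organs. Their mean over the 4 stalk and fruit libraries ran from 26.5 to 185.75 TPTM with a median of 76.75, against 27 to 851.25 TPTM with a median of 40.5 for the other 23 genes.

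**Figure D1:**
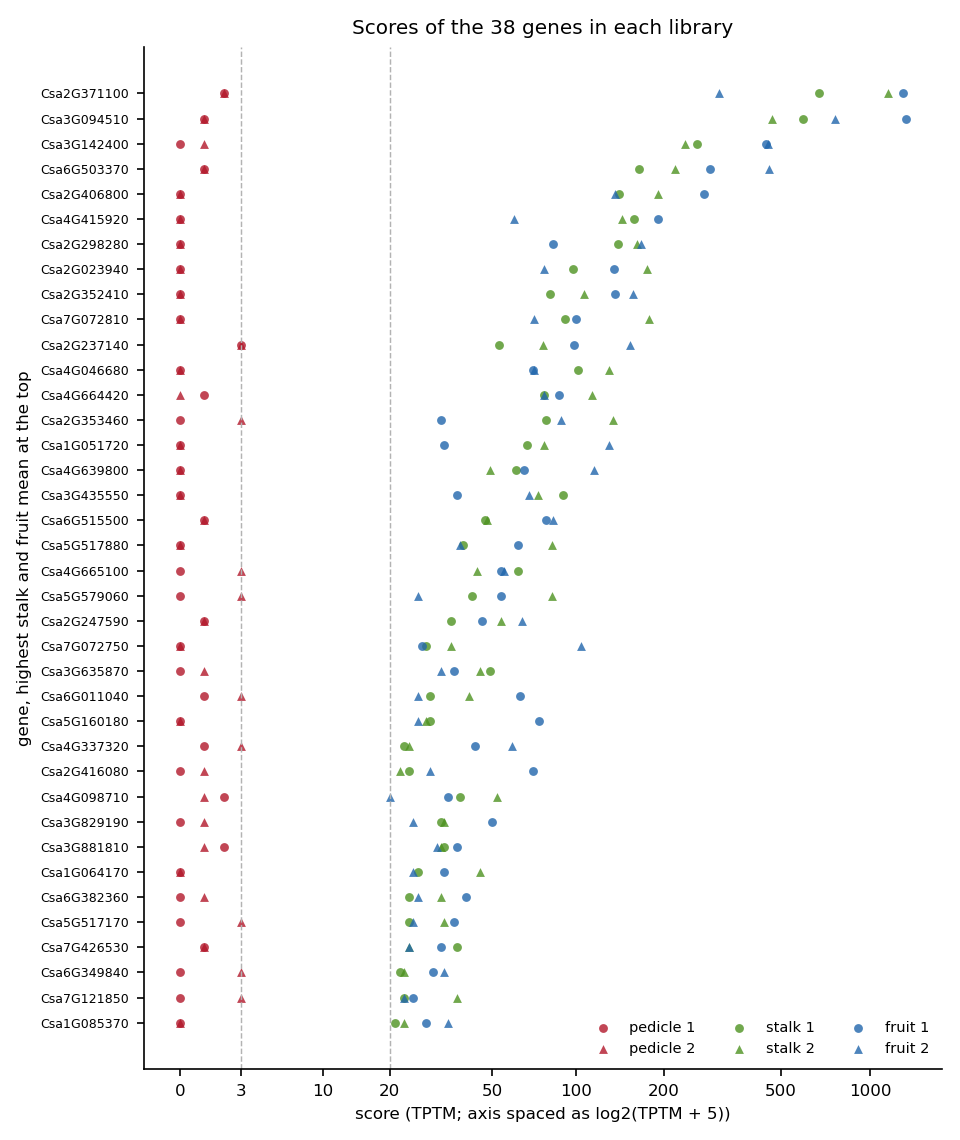
Score of each of the 38 genes in each of the 6 libraries, in TPTM on an axis spaced as log2(TPTM + 5), with genes ordered by their mean over stalk and fruit. Dashed lines mark the limits of 3 and 20 TPTM. All pedicle points lie at 0 to 3 by the rule, whereas stalk and fruit points spread from 20 to 1313 TPTM.

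In stalk and fruit the 38 genes spanned a wide range of levels. Their median score was 48 and 53 TPTM in the stalk libraries and 58 and 62 TPTM in the fruit libraries, below the medians of all genes in the table (131 to 158 TPTM in these 4 libraries). The mean over the 4 libraries was under 50 TPTM in 17 genes, 50 to 100 in 11, 100 to 200 in 6 and 200 or more in 4. These 4 most abundant genes made up 50.6% of the group's expression in stalk and fruit.

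Csa2G371100 had the highest mean, with 2 and 2 TPTM in pedicle, 672 and 1143 in stalk, with 1282 and 308 in fruit (replicates 1 and 2, in this order throughout). Its fruit libraries were 4.16-fold apart, the widest gap between replicates in the group, and they enclosed both stalk scores. Taking log2(TPTM + 5) makes differences of faint genes look smaller than they are. On that scale its pedicle level differed by -6.98 ± 0.56 from stalk and -6.50 ± 0.56 from fruit (limma estimate ± SE). The SE of each gene pools the spread of all organs, so both comparisons share it, and the rule kept pedicle scores close together. Without fruit replicate 1 the difference from fruit was -5.48, and without fruit replicate 2 it was -7.52.

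Csa3G094510 came next, at 1 and 1 TPTM in pedicle, 594 and 468 in stalk, beside 1313 and 759 in fruit. Here both fruit scores lay above both stalk scores, and the fruit mean plus 5 was 1.94 times that of stalk, close to the limit of the rule. Its log2 difference of pedicle from fruit, -7.39 ± 0.37, was the largest of the 38 genes in that comparison.

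Csa3G142400 was at 0 and 1 TPTM in pedicle, 260 and 236 in stalk, with 444 and 451 in fruit. Its replicates lay within 1.10-fold in stalk and 1.02-fold in fruit, and fruit again lay above stalk without overlap. Csa6G503370 had 1 and 1 TPTM in pedicle, 165 and 219 in stalk, beside 288 and 457 in fruit. Its organs also followed the order of fruit above stalk above pedicle in all libraries. The log2 differences of these 2 genes from fruit were -6.37 ± 0.37 and -5.94 ± 0.41.

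The next 6 genes by level were listed at 0 in both pedicle libraries. Csa2G406800 had 141 and 192 TPTM in stalk and 274 and 136 in fruit, and Csa4G415920 had 158 and 144 TPTM in stalk and 192 and 60 in fruit. In both genes fruit replicate 1 was above the stalk scores and fruit replicate 2 below them. Csa2G298280 had 140 and 162 TPTM in stalk and 83 and 167 in fruit, with the fruit replicates in the opposite order. Csa2G023940, at 97 and 176 TPTM in stalk and 135 and 77 in fruit, also overlapped between the organs. Csa2G352410 had 81 and 106 TPTM in stalk and 136 and 157 in fruit, and was the only one of these 6 genes with both fruit scores above both stalk scores. Csa7G072810 had 91 and 179 TPTM in stalk and 100 and 71 in fruit, which overlapped.

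The other 2 of the 12 most abundant genes differed in their pedicle scores. Csa2G237140 had 3 TPTM in each pedicle library, 53 and 76 in stalk and 98 and 154 in fruit, and was the only member at the limit in both. Csa4G046680 was listed at 0 in each pedicle library, at 101 and 130 TPTM in stalk and at 70 and 71 TPTM in fruit, so that stalk lay above fruit without overlap.

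The remaining 26 genes had means of 26.5 to 88.5 TPTM over stalk and fruit. At the lower end stood Csa7G426530 with 1 and 1 TPTM in pedicle, 37 and 24 in stalk, with 32 and 24 in fruit. Csa6G349840 had 0 and 3 TPTM in pedicle, 22 and 23 in stalk, beside 30 and 33 in fruit. Csa7G121850 had 0 and 3 TPTM in pedicle, 23 and 37 in stalk, with 25 and 23 in fruit. The faintest member, Csa1G085370, had 0 and 0 TPTM in pedicle, 21 and 23 in stalk, beside 28 and 34 in fruit. In genes such as these the whole difference is about 20 to 30 TPTM, and the log2 difference of Csa1G085370 was -2.84 ± 0.47 from fruit and -2.43 ± 0.47 from stalk.

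In the fit of all tested genes (limma on log2(TPTM + 5), Benjamini-Hochberg adjusted p under 0.05) all 38 genes passed the low-value filter and were called lower in pedicle than in fruit, where 15.1% of the 15381 tested genes were, and all 38 were called lower in pedicle than in stalk, where 8.88% were. The choice of genes used both contrasts, so nothing is read from these counts. The log2 difference of pedicle from fruit had a median of -3.37 over the 38 genes (from -7.39 to -2.20) and of -0.21 over all tested genes. That of pedicle from stalk had a median of -3.21 (from -6.98 to -2.04), and -0.07 over all tested genes. Both comparisons use the same pedicle libraries. The added constant sets the size of these values, since the medians of the group became -5.19 and -5.05 with a pseudocount of 1, and -1.81 for both with a pseudocount of 20. Without stalk replicate 1 the group's median log2 difference of pedicle from stalk was -3.33, and without stalk replicate 2 it was -3.13.

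Stalk and fruit were held within 2-fold by the rule, and inside that limit both directions occurred. The fruit mean was above the stalk mean in 22 of the 38 genes and below it in 16, or 57.9% above, beside 59.1% of the 11252 genes that met the same conditions on stalk and fruit. Both fruit libraries lay above both stalk libraries in 11 genes, both stalk libraries lay above both fruit libraries in 4, and the organs overlapped in 23. Among the 11252 genes these numbers were 3435, 2220 and 5597. The ratio of the fruit to the stalk mean, each plus 5, ran from 0.586 in Csa2G353460 (0 and 3 TPTM in pedicle, 78 and 134 in stalk, 32 and 88 in fruit) to 1.96 in Csa4G337320 (1 and 3 TPTM in pedicle, 23 and 24 in stalk, 43 and 59 in fruit), with a median of 1.09. Which organ was higher in the middle of the group depended on scaling, as the median log2 difference of stalk from fruit was -0.07 in the scores as deposited, 0.04 after scaling by TMM factors and 0.10 after quantile normalisation. No member (0 of 38) was called between stalk and fruit by limma after adjustment, in a comparison where 2.95% of tested genes were. At an unadjusted limma p under 0.05, 3 of the 38 members passed, beside 19.2% of tested genes (2952 of 15381). The rule bounded this contrast in the members, so nothing is read from either count. A contrast bounded by the rule cannot show that stalk and fruit are alike.

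**Figure D2:**
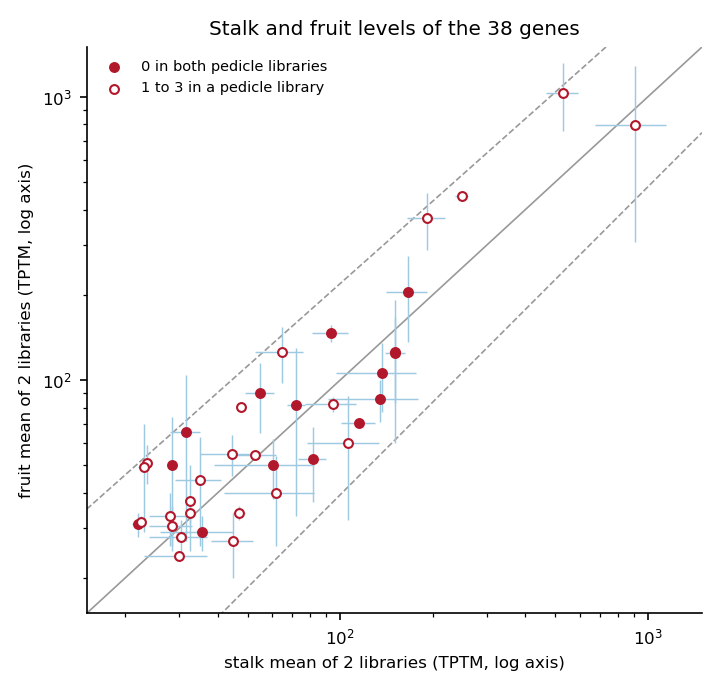
Mean stalk score against mean fruit score of the 38 genes in TPTM, both axes logarithmic. Bars run from the lower to the higher of the 2 libraries, the solid line marks equal levels, and the dashed lines mark the 2-fold limit of the rule; the fruit bars are often the longer ones.

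Replicates were farther apart in fruit than in stalk for 26 of the 38 genes (68.4%, beside 59.1% of the other genes that met the stalk and fruit conditions). The ratio of the higher to the lower library had a median of 1.58 in fruit and 1.32 in stalk, and exceeded 2 in 11 genes in fruit (28.9%, beside 6.83% of those other genes) and in 1 gene in stalk (2.63%, beside 1.76%). After Csa2G371100, the widest fruit gaps were 3.94-fold in Csa1G051720 (0 and 0 TPTM in pedicle, 67 and 77 in stalk, 33 and 130 in fruit) and 3.85-fold in Csa7G072750 (0 and 0 TPTM in pedicle, 28 and 35 in stalk, 27 and 104 in fruit). The stalk gap above 2 was 2.10-fold, in Csa5G517880 (0 and 0 TPTM in pedicle, 39 and 82 in stalk, 62 and 38 in fruit). No fruit library was the higher one throughout, since replicate 1 was above replicate 2 in 21 genes and below it in 17. Stalk replicate 2 was above replicate 1 in 27 genes and below it in 11. Among the members at 20 to 50 TPTM the median gap between replicates was 0.28 on the log2(TPTM + 5) scale in stalk and 0.44 in fruit, beside 0.24 and 0.40 in the other genes of that level that met the stalk and fruit conditions. At 50 to 100 TPTM it was 0.45 and 0.64 in the members, beside 0.29 and 0.42. The 6 members at 100 to 200 TPTM had gaps of 0.40 and 0.87, beside 0.26 and 0.37. For the 2 members at 200 to 500 TPTM they were 0.27 and 0.34, beside 0.25 and 0.30, and for the 2 at 500 and over 0.55 and 1.41, beside 0.23 and 0.27. These medians were higher in the members in each class, but only slightly at 20 to 50 TPTM and at 200 to 500. The excess was largest in fruit at 100 to 200 and at 500 and over. The latter class holds 2 members, with fruit gaps of 2.04 (Csa2G371100) and 0.79 (Csa3G094510). In 17 genes all 4 libraries lay within 2-fold of each other.

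The conditions on stalk and fruit alone were met by 11252 genes, of which the 38 are 0.338%. Among them, the share with both pedicle libraries at 3 TPTM or less was highest where the stalk and fruit level was lowest. It was 1.59% (17 of 1067) at a mean of 20 to 50 TPTM, 0.581% (11 of 1894) at 50 to 100, 0.262% (6 of 2289) at 100 to 200, 0.0701% (2 of 2852) at 200 to 500 and 0.0635% (2 of 3150) at 500 and over. Scores of 4 to 10 TPTM were more common than scores of 0 to 3 in the classes under 500 TPTM, but that range takes in more whole numbers. At 20 to 50 TPTM, 35 genes had a higher pedicle score of 4 to 10 and 92 of 11 to 20. These numbers were 28 and 52 at 50 to 100 TPTM, 8 and 12 at 100 to 200, 3 and 6 at 200 to 500, and 2 and 1 at 500 and over. The limit of 3 TPTM is fixed, so it asks for a larger fold difference at higher stalk and fruit levels. The fall of the members' share with level is therefore partly set by the rule. In every class genes lay on both sides of the limit of 3 TPTM. The ranges of 0 to 3, 4 to 10 and 11 to 20 differ in width. A rise in count from one range to the next is therefore not read as a rise in frequency.

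**Figure D3:**
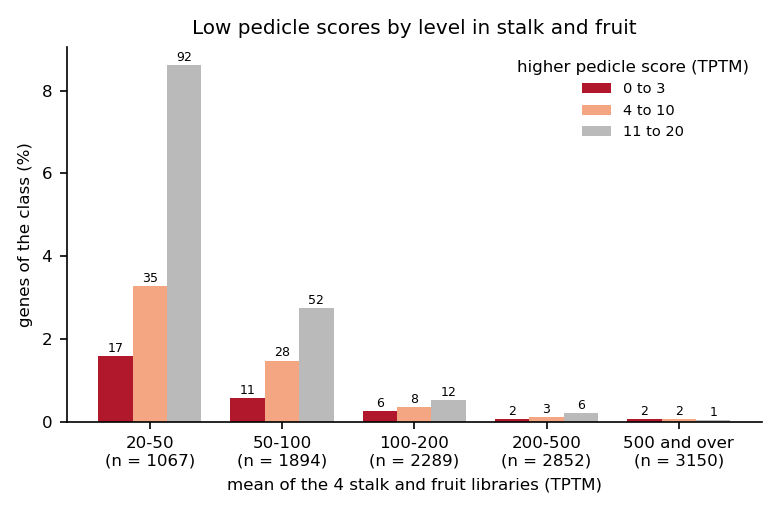
Share of the 11252 genes meeting the stalk and fruit conditions whose higher pedicle score was 0 to 3, 4 to 10 or 11 to 20 TPTM, by mean level in stalk and fruit. Numbers above the bars count genes; at 20 to 50 TPTM the 17 members stand beside 35 and 92 genes with slightly higher pedicle scores.

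Genes close to the limits were as follows. At the pedicle limit 9 members had a higher pedicle score of 3, while 14 genes that met every other condition had 4 and 6 had 5. Csa1G004240 (4 and 2 TPTM in pedicle, 62 and 60 in stalk, 81 and 62 in fruit) was among those just outside. So was Csa3G198490, singled out after its values were seen, with 4 and 2 TPTM in pedicle, 307 and 183 in stalk, with 419 and 425 in fruit, which is more abundant in stalk and fruit on average than all but 3 members. At the floor, Csa4G098710 was inside with 20 TPTM in fruit replicate 2 (2 and 1 in pedicle, 38 and 52 in stalk, 34 in fruit replicate 1). Csa2G021670 was outside with 19 TPTM in stalk replicate 1 (0 and 0 in pedicle, 36 in stalk replicate 2, 51 and 33 in fruit). At the 2-fold limit, after Csa4G337320 at 1.96, Csa2G416080 was inside at a ratio of 1.95 (0 and 1 TPTM in pedicle, 24 and 22 in stalk, 70 and 29 in fruit), and Csa5G154830 outside at 2.04 (0 and 1 in pedicle, 46 and 84 in stalk, 175 and 100 in fruit). In all, 493 genes were at 3 TPTM or less in both pedicle libraries, and 68 of them had 20 TPTM or more in all 4 other libraries. The 30 of these outside the 2-fold limit had more in fruit in 28 cases and more in stalk in 2.

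The scores that chose the genes could be separated from scores that did not by using 1 library per organ at a time. When the conditions were applied to the libraries numbered 1 alone, 173 genes met them, 33 of the 38 among them. In pedicle replicate 2, which had no part in this choice, 48 of the 173 (27.7%) were at 3 TPTM or less, the median was 9 TPTM and the highest score was 90. When the libraries numbered 2 chose, 90 genes met the conditions, 27 of the 38 among them, and 56 of the 90 (62.2%) were at 3 TPTM or less in pedicle replicate 1, with a median of 1 and a highest score of 90 TPTM. Of all genes meeting the stalk and fruit conditions in the choosing libraries, 0.715% (82 of 11470) and 1.58% (169 of 10709) were that low in the left-out pedicle library. The left-out pedicle score was thus low more often in the chosen genes than among all such genes, but a low score in 1 pedicle library was often not met in the other. The genes compared were not matched for level. In the choosing libraries 103 of the 173 and 51 of the 90 had a stalk and fruit mean of 20 to 50 TPTM, where low pedicle scores were most common. The left-out stalk and fruit scores were both at 20 TPTM or more in 124 of the 173 and 64 of the 90. Pedicle replicate 1 had 1063 genes at 3 TPTM or less against 733 in replicate 2. The part of this in the difference between the directions was not tested. In 50 of the 173 (28.9%) and 17 of the 90 genes (18.9%) the left-out pedicle library exceeded 20 TPTM, beside 95.4% and 92.9% of all genes meeting the stalk and fruit conditions. It lay below both left-out stalk and fruit libraries in 136 of the 173 (78.6%) and 73 of the 90 (81.1%), beside 40.7% and 48.3%. After quantile normalisation the shares at 3 TPTM or less were 44.4% (24 of 54) and 52.8% (28 of 53), a narrower gap between the directions. After scaling by TMM factors they were 25.7% (35 of 136) and 67.1% (47 of 70), a wider one.

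In one direction of this exchange a left-out score of 3 TPTM or less was more common in the more abundant genes. All 14 genes chosen on the libraries numbered 2 with a stalk and fruit mean of 100 TPTM or more were at 0 to 3 TPTM in pedicle replicate 1, against 13 of 25 at 50 to 100 TPTM and 29 of 51 at 20 to 50. For the genes chosen on the libraries numbered 1, the counts were 8 of 23, 12 of 47 and 28 of 103 in the same order of levels, so the share at this fixed limit hardly differed by level (34.8%, 25.5% and 27.2%). A limit of 10% of the left-out stalk and fruit mean gave shares that did differ. The left-out pedicle score was below it in 73.9%, 40.4% and 21.4% of these genes. In the other direction the shares were 100%, 64% and 54.9%. Such a limit is stricter in TPTM for faint genes.

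**Figure D4:**
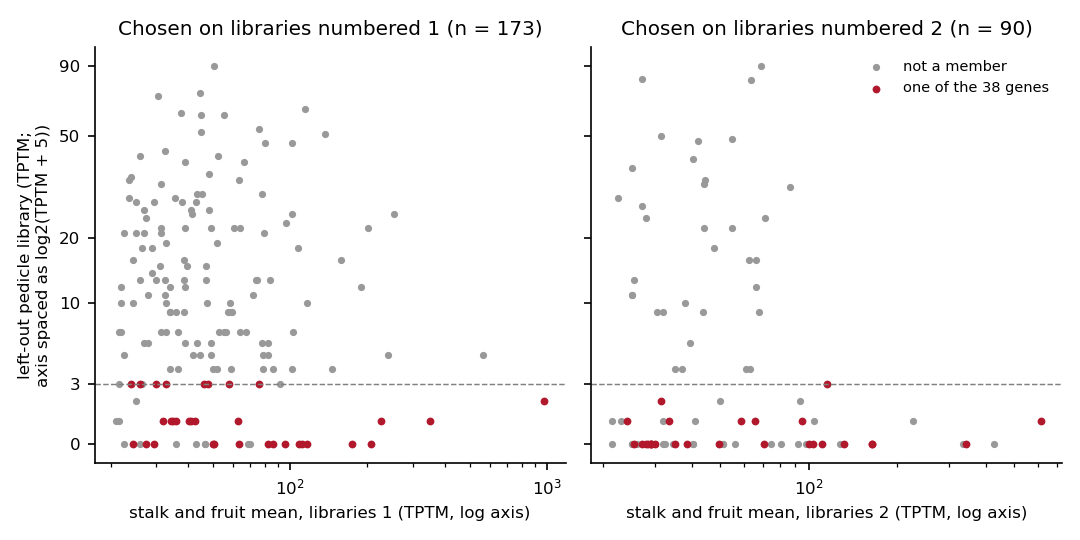
Score in the pedicle library left out of the choice (TPTM, axis spaced as log2(TPTM + 5)) against the stalk and fruit mean in the choosing libraries (TPTM, logarithmic), for the 173 genes chosen on the libraries numbered 1 and the 90 chosen on those numbered 2. Points above the dashed line exceeded 3 TPTM in the left-out library, up to 90 TPTM in both panels.

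The mirrored patterns held fewer genes. With fruit in the place of pedicle, the same 3 conditions were met by 3 genes, Csa2G010220 (28 and 71 TPTM in pedicle, 22 and 47 in stalk, 0 and 0 in fruit), Csa2G373490 (53 and 39 in pedicle, 34 and 56 in stalk, 1 and 1 in fruit) and Csa7G073480 (24 and 57 in pedicle, 30 and 24 in stalk, 3 and 3 in fruit). All 3 were faint, with no score above 71 TPTM. With stalk in the place of pedicle, 0 genes met them. Both pedicle libraries also had more genes at 3 TPTM or less, 493 against 180 in fruit and 225 in stalk, and the share of this in the difference between 38, 3 and 0 was not tested.

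The locus identifiers of the 38 genes carry a digit that the rule did not use. Identifiers beginning Csa2G numbered 9 (23.7% of the group, beside 12.4% of the 11252 genes meeting the stalk and fruit conditions), those beginning Csa4G 7 (18.4% beside 12.5%) and those beginning Csa3G 6 (15.8% beside 20.9%). A further 5 began Csa6G, 4 each Csa5G and Csa7G, and 3 Csa1G. With so few genes in each class these shares are a description. Ordered by identifier, no member stood next to another (0 of 38), and 4 stood within 5 places of another, namely Csa7G072750 with Csa7G072810 and Csa2G352410 with Csa2G353460. All but 1 of these pedicle scores were 0, the other being 3 TPTM in pedicle replicate 2 for Csa2G353460. The 76 genes that directly neighbour a member in this order, which the rule did not choose, had a median log2 difference of pedicle from stalk and fruit of -0.35, with quartiles of -0.77 and 0.13. Over all genes the median was -0.13, with quartiles of -0.68 and 0.35. In both pedicle libraries 5 of the 76 neighbours (6.58%) were at 3 TPTM or less, beside 3.14% of all genes. All 5 also had a stalk score below 20 TPTM, most of them at 0 to 2 TPTM in both stalk libraries. None of them had the pattern of the group.

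**Figure D5:**
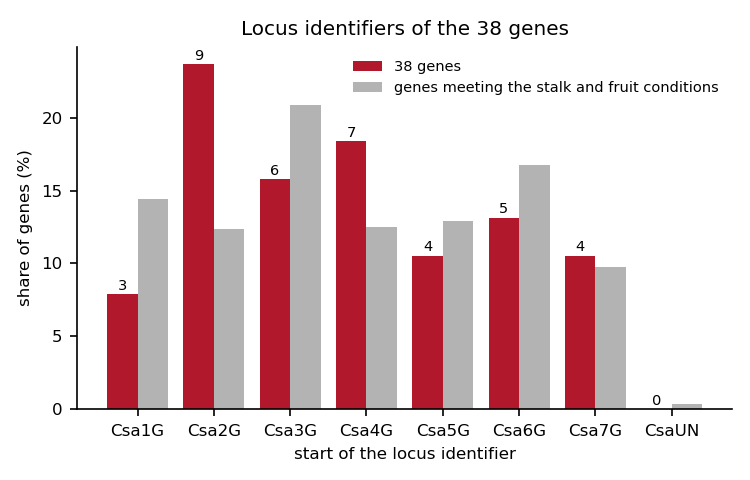
Share of the 38 genes and of the 11252 genes meeting the stalk and fruit conditions by the start of the locus identifier, in percent. Numbers above the bars count members, from 0 for CsaUN to 9 for Csa2G.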

How the data were processed

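Phloem from pedicle, stalk and fruit was dissected by laser and sequenced after RNA amplification, with 2 libraries per organ, per the labels' protocols. Per the submitters' processing notes the tools included TopHat and HTSeq, while their versions, the genome build and the gene annotation are not stated there. A single table of whole-number scores called TPTM was deposited by the authors, whose columns sum to just under 10000000, so the score is read as a normalised, rounded value and not a count. Every gene reached 10 TPTM or more on average in an organ.

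The rule was applied to the deposited scores with pandas 2.3.3 in Python 3.11.15. For the 15381 genes that reached 10 TPTM in 2 or more libraries, log2(TPTM + 5) was fitted with limma 3.58.1 in R 4.3.3 (1 term per organ, all 6 libraries, intensity trend, 3 residual and 7.76 prior degrees of freedom). P-values would measure only the spread between libraries. Reads per TPTM were estimated by likelihood from the use of whole numbers between 15 and 200 TPTM, assuming rounded scaled reads, and kept at a log likelihood margin of 3; of 100 simulated libraries 85 were kept and 84 of these were right. The limma pipeline was tested on simulated data.

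Named genes are the 12 with the highest and 4 with the lowest stalk and fruit mean, those nearest each limit, and those with extreme ratios, replicate gaps or close identifiers. The members and lists were chosen with earlier results of these data known. Planned marker lists needed gene names and were not used. Alternatives covered pseudocount, filter, scaling (TMM factors computed on the scores, quantile normalisation), trend, organs fitted, replicate block, left-out libraries and the rule's limits.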

Additional observations from a re-analysis of the deposited data

How the results depend on the processing

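The size of the group follows from its limits. It was 38 genes as deposited and 23 with quantile normalisation (20 of them among the 38). It was 58 with pedicle at most 5 TPTM, 79 with stalk and fruit at least 10 and 13 with at least 50. Without the limit on the ratio it was 68, and 22 within 1.5-fold. Leaving out 1 library gave 38 to 142 genes, with 64 without pedicle replicate 1 and 142 without pedicle replicate 2. Leaving out a pedicle library only loosens the rule, so all 38 stayed in. Of the 38, 34 and 35 remained without stalk replicate 1 and 2, and 31 and 32 without fruit replicate 1 and 2. Members called lower in pedicle than in stalk numbered 19 to 38 with 1 library left out; such fits assume that the lone library varies like the others. Those called lower in pedicle than in fruit numbered 33 to 38, and 0 members were called between stalk and fruit under any alternative run. With 1 library left out, counts under 38 came only from fits without a library of the organ set against pedicle. Fewer of all tested genes were called in those fits too, so nothing about the members alone is read from these counts. Without stalk replicate 1 and 2 the group's median log2 difference from stalk was -3.33 and -3.13, beside -3.21 with all libraries. In a fit with a replicate block all 38 stayed called against both organs, where 2066 (fruit) and 1223 (stalk) of the 15381 tested genes were. Replicate differences correlated across genes at -0.0487 (pedicle and fruit), 0.0103 (stalk and fruit) and -0.117 (pedicle and stalk). With 1 such difference per organ, these values cannot show whether libraries of equal number share plants or a batch. The share of genes chosen on the libraries numbered 1 with a low left-out pedicle score was 27.7% as deposited. It was 44.4% with quantile normalisation (24 of 54) and 25.7% with TMM factors (35 of 136). For genes chosen on the libraries numbered 2 the shares were 62.2%, 52.8% (28 of 53) and 67.1% (47 of 70). The cause was not tested. Members within 5 places of another in identifier order numbered 4, and 0 were adjacent. Quantile normalisation moved the median log2 difference of pedicle from fruit over all tested genes from -0.21 to 0.01 and TMM factors moved it to -0.04, with group medians of -3.02 and -3.28. TMM factors gave 31 genes by the rule, 28 of them among the 38. For the 12 most abundant members and the group medians, 441 recomputed log2 differences moved by less than the replicate spread and 105 moved by more. Many of the 441 could not move. A change of filter, trend, organs fitted or replicate block leaves these estimates unchanged. Leaving out a library of the organ not compared does too. Of the called differences 0 changed sign, for which the rule's limits on the scores left little room. Differences of stalk from fruit were not called and are not covered by this. For some genes, such as Csa2G371100 and Csa4G415920, their sign changed when fruit replicate 2 was left out. Depth is unknown for pedicle replicate 1 and fruit replicate 1.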
